A study of Homo sapiens with 42 samples.

Results

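CLK1, CLK2, CLK3 and CLK4 (CDC-like kinases) and SRPK1 and SRPK2 (serine/arginine protein kinases) were taken by gene symbol from tables of read counts in K562 cells, and all 6 of 6 were found among the 58243 genes counted. K562 is an established human cell line from chronic myeloid leukaemia that depends on the fusion kinase BCR-ABL1. RNA was sequenced from untreated cells (CTRL) and from cells kept in 1 µM imatinib (IM), an inhibitor of that kinase, in 5 µM JTE-607 (JTE), a compound directed at the nuclease CPSF73 that cuts transcripts at their 3′ ends, or in 110 mM KCl, an osmotic stress. Whole cells gave poly(A)-selected RNA (mRNA) in 9 groups: CTRL, KCl at 1 h and 3 h, and each of IM and JTE at 1 h, 6 h and 18 h. Isolated nuclei gave rRNA-depleted RNA (nuclear RNA) in 5 groups, CTRL, IM for 1 and 18 h, JTE for 1 h and KCl for 1 h. Every group had 3 replicates, 42 libraries in 14 groups, and treatments were timed to end together with CTRL.

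CLK and SRPK kinases phosphorylate SR proteins, splicing factors whose tails are rich in arginine-serine repeats. SRPK1 and SRPK2 act mainly in the cytoplasm, where the phosphate they add lets SR proteins be imported into the nucleus. CLK1 to CLK4 sit in the nucleus, phosphorylate the same tails further and release SR proteins from nuclear speckles, and transcripts of several CLK genes are themselves held in the nucleus with unspliced introns until they are needed.

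The genes lie on hg38 at chr2:200853009-200864744 (CLK1), chr1:155262868-155278491 (CLK2), chr15:74598500-74645414 (CLK3, the only 1 of the 6 on the plus strand), chr5:178602664-178630615 (CLK4), chr6:35832966-35921342 (SRPK1) and chr7:105110704-105399308 (SRPK2). The counts cover exons, from 3670 bases of merged exon in CLK2 to 20443 in CLK3. Exons of genes on the opposite strand overlap 701 exonic bases of CLK3 (EDC3), 265 of SRPK1 (LHFPL5) and 98 of SRPK2 (KMT2E). Unnamed long noncoding RNA genes on the opposite strand overlap a further 479 and 180 bases of CLK3 (ENSG00000275527 and ENSG00000260919) and 136 of SRPK2 (ENSG00000242154), and the small RNA gene RN7SKP70 overlaps 161 bases of CLK4 on the same strand. SRPK1 and SRPK2 have 4 and 5 gaps between merged exons longer than 10000 bases, the longest intron the alignment allowed, so reads joining exons across such introns could not be counted.

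Promoters are printed for CLK4, CLK3 and SRPK1, which were called after 18 h of imatinib, and for CLK1, whose libraries did not overlap CTRL there but which was not called, from RefSeq on GRCh38.p14 and read along the gene's strand, with 250 bases before and 50 after the transcript start. Where RefSeq lists several starts, the more distal 1 of 2 is shown for CLK1 and the more proximal for CLK3. Capitals mark matches on either strand to the E-box CACGTG, the GC box GGGCGG and the ETS motif CCGGAAG. The CRE TGACGTCA and the STAT motif TTCNNNGAA were searched as well and matched none of the 11 promoters listed for the 6 genes.
CLK4, chr5:178627001-178627300, minus strand: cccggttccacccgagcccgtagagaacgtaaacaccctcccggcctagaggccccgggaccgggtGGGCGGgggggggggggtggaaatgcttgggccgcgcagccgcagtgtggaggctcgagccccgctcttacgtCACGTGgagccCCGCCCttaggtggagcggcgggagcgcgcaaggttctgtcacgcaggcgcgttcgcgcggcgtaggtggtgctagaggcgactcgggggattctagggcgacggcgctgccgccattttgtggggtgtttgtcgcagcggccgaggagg
CLK3, chr15:74615586-74615885, plus strand: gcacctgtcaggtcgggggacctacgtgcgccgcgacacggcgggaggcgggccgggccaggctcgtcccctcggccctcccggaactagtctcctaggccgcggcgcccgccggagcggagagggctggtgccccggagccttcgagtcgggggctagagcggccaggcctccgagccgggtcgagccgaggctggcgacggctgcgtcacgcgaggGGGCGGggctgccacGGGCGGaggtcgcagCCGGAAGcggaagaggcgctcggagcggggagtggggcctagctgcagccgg
CLK1, chr2:200864609-200864908, minus strand: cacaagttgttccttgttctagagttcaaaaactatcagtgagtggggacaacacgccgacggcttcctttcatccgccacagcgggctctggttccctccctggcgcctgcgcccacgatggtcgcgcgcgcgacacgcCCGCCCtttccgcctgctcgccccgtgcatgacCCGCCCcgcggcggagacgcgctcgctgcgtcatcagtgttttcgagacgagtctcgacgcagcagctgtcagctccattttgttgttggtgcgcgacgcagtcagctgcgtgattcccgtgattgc
SRPK1, chr6:35921049-35921348, minus strand: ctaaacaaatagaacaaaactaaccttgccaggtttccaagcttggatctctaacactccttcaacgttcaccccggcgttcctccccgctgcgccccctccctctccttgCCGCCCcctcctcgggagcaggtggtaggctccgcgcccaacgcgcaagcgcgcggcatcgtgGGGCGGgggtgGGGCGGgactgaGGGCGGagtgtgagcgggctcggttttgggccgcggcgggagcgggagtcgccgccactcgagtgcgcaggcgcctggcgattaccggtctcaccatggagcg
An E-box began 111 bases before the start of CLK4 and 72 bases before that of CLK2, and 7.26% of all 35116 promoters of the same length held such a match. The promoter of CLK3 had an ETS match that began 2 bases before its start and ran past it, a motif found in 10.3% of all promoters. A GC box was found in 7 of the 11 promoters of the 6 genes and in 45.0% of all promoters. The 2 promoters of CLK1 overlap and hold the same 2 GC boxes, so both are among the 7. All motif hits are letter matches in fixed windows, with no measurement of binding.

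Levels are given as CPM, the counts of a library scaled to a common total, with TMM factors set separately in each fraction. Totals ran from 16439848 to 62953314 counts in mRNA, with 25 of 27 libraries at 22505595 or less and KCl 1h replicates 2 and 3 above that, and from 16175394 to 25103205 in nuclear RNA. Read counts of the kinases ran from 141 for CLK4 to 30215 for SRPK1 in single libraries, and all 6 passed the filter on low counts in both fractions. Each of 12 erythroid and K562 markers was above 68 CPM on average in CTRL of both fractions, the T cell marker CD3E and the B cell marker MS4A1 were at 0.0175 and 0 CPM in mRNA, and 4 of 10 markers of other cells exceeded 5 CPM, with the epithelial keratin gene KRT8 at 174 and the epithelial adhesion gene EPCAM at 91.1 CPM. Imatinib for 18 h lowered the STAT5 targets SOCS3 and CISH by log2 fold changes (log2FC) of -3.76 and -2.82 in mRNA, and KCl for 1 h raised the stress gene GADD45B by 4.28. In bulk RNA, fewer cells of a kind and less RNA per cell cannot be told apart.

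Per kilobase of exon, SRPK1 was the most abundant of the kinases and CLK4 the least. In mRNA of CTRL cells the means were 63.0 CPM per kb for SRPK1 (SD 7.70, n = 3), 13.9 for CLK2 (SD 2.68), 12.8 for SRPK2 (SD 1.70), 7.10 for CLK1 (SD 0.527), 2.06 for CLK3 (SD 0.214) and 1.54 for CLK4 (SD 0.128). The ranges of CLK2 and SRPK2 overlapped and those of all other neighbours in this order did not. Nuclear RNA gave the same order, with CLK2 at 22.4 (SD 1.15) well clear of SRPK2 at 11.2 (SD 1.62) and no overlap between any neighbours. The value for CLK3 is divided by its long merged exons, and in plain CPM the CTRL mean of CLK3 was above that of CLK1 in both fractions. In mRNA the CTRL libraries overlapped, from 38.8 to 47.0 CPM for CLK3 and from 33.7 to 38.9 for CLK1.

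A gene was called changed when the adjusted p of edgeR's quasi-likelihood test, corrected over all genes tested, was under 0.05 and the log2FC was beyond 0.6 in either direction. After 18 h of imatinib CLK4 and CLK3 rose and SRPK1 fell, in mRNA and in nuclear RNA alike, 3 of 6 where 30.5% and 32.6% of all genes were called. CLK4 was the only 1 of the 6 called at 6 h (9.94% of all genes). With JTE-607 none of the 6 was called at any time, where 0.851% to 13.2% of all genes were, and with KCl only CLK4 was, in nuclear RNA (23.8%). CLK2 and SRPK2 were called in none of the 12 comparisons with CTRL.

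**Figure D1:**
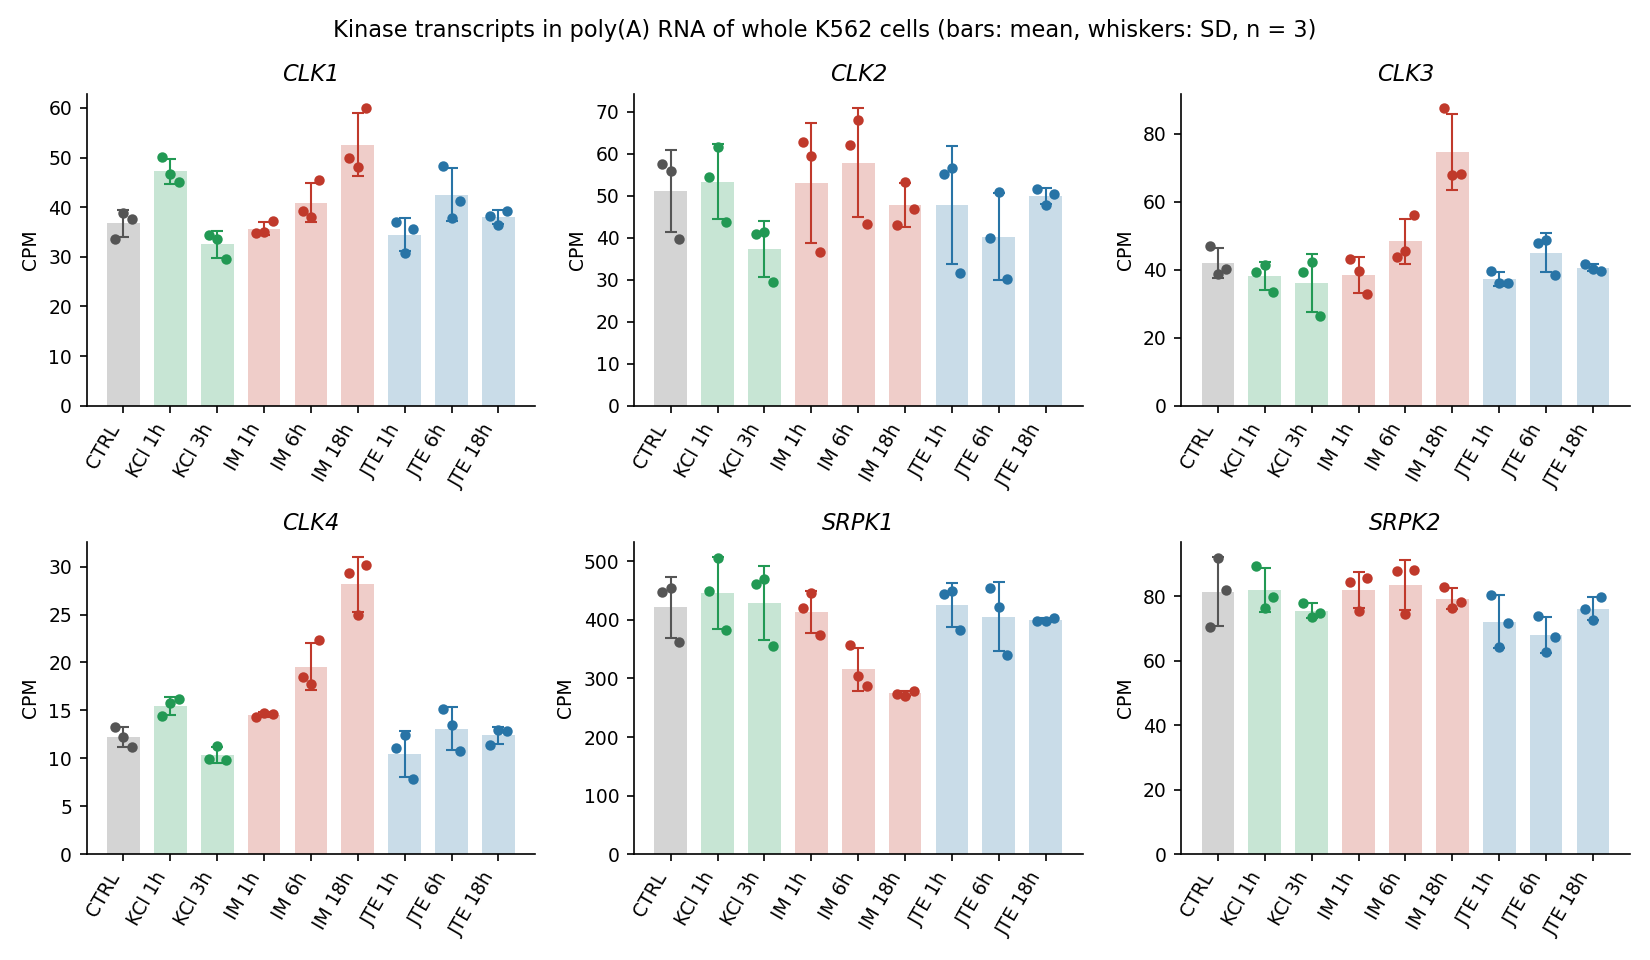
CPM of the 6 kinases (y axes, each from 0) in the 9 mRNA groups (x axes), with points for the 3 libraries, bars for the mean and whiskers for the SD. CLK4 at 28.2 CPM and CLK3 at 74.5 CPM stand highest after 18 h of imatinib, where SRPK1 is lowest at 275 CPM.

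CLK4, a CLK family member close in sequence to CLK1, had the largest response. In mRNA it measured 13.2, 12.2 and 11.2 CPM in CTRL, 14.3, 14.8 and 14.6 after 1 h of imatinib, 18.5, 17.8 and 22.3 after 6 h, and 29.4, 24.9 and 30.2 after 18 h. Every imatinib library stood above every CTRL library, but the 1 h difference did not pass the test (log2FC 0.25, SE 0.15, adjusted p = 1.0). The 6 h and 18 h libraries overlapped with no other mRNA group. The log2FC was 0.68 (SE 0.15, adjusted p = 0.00276) at 6 h and 1.20 (SE 0.15, adjusted p = 1.01e-06) at 18 h. The 6 h call was lost without CTRL replicate 3 (log2FC 0.58, adjusted p = 0.0317) and without IM 6h replicate 3 (0.55, 0.0359), while the 18 h call held in all 12 alternatives, between 1.11 and 1.26. From 6 h to 18 h CLK4 differed by 0.53 (adjusted p = 0.0263), short of the fold threshold, and passed it without IM 6h replicate 3 (0.63) or IM 18h replicate 2 (0.61).

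In nuclear RNA, CLK4 measured 16.8, 15.2 and 17.9 CPM in CTRL, 19.9, 18.1 and 19.0 after 1 h of imatinib and 42.9, 33.1 and 29.8 after 18 h. The 18 h libraries were all far above both other groups, and the 1 h difference did not pass the test (log2FC 0.19, SE 0.14, adjusted p = 0.879). The log2FC at 18 h was 1.09 (SE 0.14, adjusted p = 2.09e-06), and it stayed called in all 11 alternatives, at 0.92 without IM 18h replicate 1. RN7SKP70, the small RNA inside CLK4, was at 0.401 CPM in nuclear CTRL and 0.621 CPM after 18 h (log2FC 0.62, adjusted p = 0.21).

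CLK3, a nuclear kinase of the same family, was at 47.0, 38.8 and 40.2 CPM in mRNA of CTRL, 43.6, 45.4 and 55.9 after 6 h of imatinib and 87.4, 67.9 and 68.2 after 18 h. Only the 18 h libraries stood apart from CTRL. The log2FC at 18 h was 0.83 (SE 0.15, adjusted p = 0.000138), and in nuclear RNA, where CTRL had 82.9, 91.2 and 95.8 CPM and IM 18h had 166, 124 and 166, it was 0.76 (SE 0.12, adjusted p = 3.8e-05). The mRNA call held in all 12 alternatives and the nuclear call in all 11. EDC3, which shares exonic bases with CLK3, had a log2FC of -0.15 in each fraction at 18 h, with adjusted p = 0.342 in mRNA and 0.253 in nuclear RNA. ENSG00000260919, which shares 180 bases with CLK3, was called higher in nuclear RNA at 18 h (log2FC 2.91, SE 0.47, adjusted p = 4.28e-05), from 1, 4 and 2 reads in CTRL to 20, 17 and 16, or at most 0.936 CPM. ENSG00000275527 had 0 reads in every library. The part of reads from ENSG00000260919 in the nuclear level of CLK3 was not tested.

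Between 6 h and 18 h of imatinib CLK3 was the only 1 of the 6 called, against 4.41% of all genes, with a log2FC of 0.63 (SE 0.15, adjusted p = 0.0139). That call is close to the threshold: it was lost without IM 6h replicate 1 (0.55) or 2 (0.59), without IM 18h replicate 1 (0.49) and with no filter on low counts (0.58).

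CLK1, the best studied CLK kinase, was at 33.7, 38.9 and 37.6 CPM in mRNA of CTRL and at 49.8, 48.1 and 59.9 after 18 h of imatinib. The groups did not overlap, and the log2FC of 0.52 (SE 0.11, adjusted p = 0.000545) stayed under the fold threshold, so CLK1 was not called. Nuclear RNA gave 0.50 (SE 0.14, adjusted p = 0.00615), with 31.4, 30.0 and 28.4 CPM in CTRL and 49.0, 38.1 and 39.7 after 18 h. CLK2 was not called in any of these comparisons. Its mRNA level was 57.6, 55.9 and 39.8 CPM in CTRL and 43.1, 53.4 and 46.8 after 18 h, with overlapping groups.

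SRPK1, the more abundant SR protein kinase, was at 448, 454 and 362 CPM in mRNA of CTRL, 357, 303 and 286 after 6 h of imatinib and 274, 271 and 279 after 18 h. All libraries at 6 h and 18 h were below all CTRL libraries. The log2FC was -0.42 (SE 0.12, adjusted p = 0.0235) at 6 h, short of the fold threshold, and -0.62 (SE 0.12, adjusted p = 0.000334) at 18 h. The 18 h call sits at the threshold and was lost without CTRL replicate 1 (log2FC -0.58, adjusted p = 0.00258) or CTRL replicate 2 (-0.59, 0.00262). In nuclear RNA SRPK1 had 439, 381 and 371 CPM in CTRL and 259, 264 and 218 after 18 h, and fell by 0.69 on the log2 scale (SE 0.11, adjusted p = 6e-05), a call lost without nuclear CTRL replicate 1 (-0.57, 0.000594). LHFPL5, on the opposite strand, was at 0 CPM in mRNA of CTRL. SRPK2, its paralogue, stayed between 62.7 and 92.0 CPM over all 27 mRNA libraries and was not called. KMT2E, which overlaps it, was called higher in nuclear RNA at 18 h (log2FC 0.77, adjusted p = 0.0026).

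Read against the background, the counts of kinases called were 0 of 6 in mRNA after 1 h of imatinib (0.0166% of all 18095 genes tested), 1 of 6 after 6 h (9.94%) and 3 of 6 after 18 h (30.5%). In nuclear RNA, with 21929 genes tested, they were 0 of 6 after 1 h (0.0456%) and 3 of 6 after 18 h (32.6%). With no fold threshold, 2 of 6 passed at 6 h in mRNA, as did 16% of all genes. At 18 h 4 of 6 passed in each fraction, beside 43.8% of all genes in mRNA and 45.6% in nuclear RNA. After 1 h the log2FC lay between -0.13 and 0.25 in mRNA and between -0.18 and 0.19 in nuclear RNA, and DESeq2 called 0. None of the 6 had an unadjusted p under 0.05 in either fraction. Of all genes tested, 206 of 18095 in mRNA and 844 of 21929 in nuclear RNA had such a p.

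Erythroid genes moved with the same libraries. Of the 12 K562 and erythroid markers, 9 rose and 0 fell in mRNA after 18 h of imatinib (30.5% of all genes called). Among those that rose were the globins HBZ, HBE1, HBG1 and HBG2 and the red cell factor KLF1. In nuclear RNA 8 of the 12 rose and 0 fell (32.6% of all genes called). Their summed mRNA level lay between 4883 and 6174 CPM in the CTRL libraries and between 12498 and 17299 CPM after 18 h. In nuclear RNA it lay between 5801 and 7694 CPM in CTRL and between 13600 and 16475 CPM after 18 h. After 6 h of imatinib 3 of the 12 rose (9.94% of all genes called). Under JTE-607 none of the 12 was called at any time (0.851% to 13.2% of all genes). Under KCl none of the 12 was called either (5.45% to 23.8% of all genes). Their summed mRNA level after 18 h of JTE-607 lay between 3562 and 4862 CPM, below all CTRL libraries. In the other JTE-607 and KCl groups the sums overlapped those of CTRL. Of the 10 markers of other cells, 6 were tested, and in mRNA 1 rose and 3 fell after 18 h of imatinib. There 30.5% of all genes were called. The summed level of the 10 was 177 to 196 CPM against 272 to 289 in CTRL. CD3E, MS4A1 and INS, the insulin gene, were at or near 0 in CTRL. The part of these shifts in the changes of CLK3, CLK4 and SRPK1 was not tested.

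**Figure D2:**
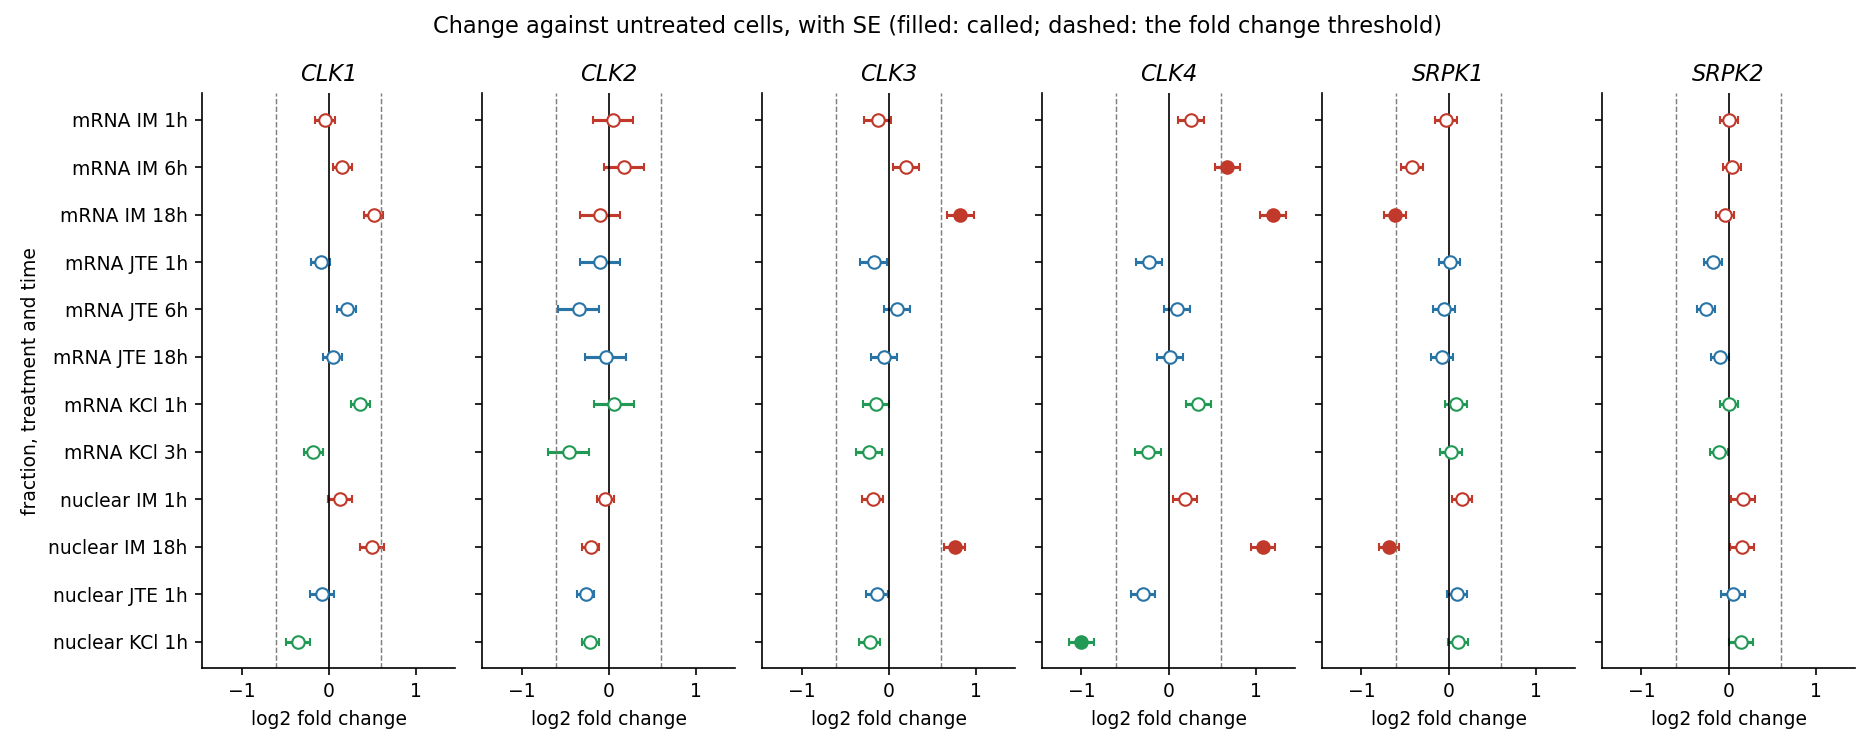
Log2FC against CTRL (x axis) with its SE for the 6 kinases (panels) in 12 comparisons (rows), filled where called, with dashed lines at the fold threshold of 0.6. Filled points are CLK4 in 4 comparisons, with CLK3 and SRPK1 in both fractions after 18 h of imatinib.

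JTE-607 left the 6 kinases without a call at each time. None of the 6 was called after 1 h (0.851% of all genes), 6 h (13.2%) or 18 h (5.39%) in mRNA or after 1 h in nuclear RNA (8.52%), and DESeq2 called 0 in each. In mRNA the log2FC ranged from -0.22 to 0.01 at 1 h and from -0.34 to 0.21 at 6 h. At 18 h it ranged from -0.10 to 0.05, and the SEs in mRNA were 0.10 to 0.24. In nuclear RNA at 1 h the range was -0.29 to 0.09, with SEs of 0.10 to 0.14. At an unadjusted p under 0.05 there were 0, 1 and 0 of the 6 in mRNA, where 1341, 5336 and 4101 of all 18095 genes were. In nuclear RNA there were 2 of the 6, beside 4776 of all 21929 genes. The 1 in mRNA was SRPK2 at 6 h (log2FC -0.26, adjusted p = 0.0895), and those in nuclear RNA were CLK2 (-0.26, adjusted p = 0.105) and CLK4 (-0.29, adjusted p = 0.228), each with all 3 libraries below CTRL.

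Neither step between JTE-607 times had a call, with 0 of 6 from 1 h to 6 h (9.23% of all genes) and 0 of 6 from 6 h to 18 h (13.4%), also by DESeq2. From 1 h to 6 h CLK1 differed by 0.30 (adjusted p = 0.0727) and CLK4 by 0.32 (adjusted p = 0.186), the pair at an unadjusted p under 0.05 (4444 of all 18095 genes tested). From 6 h to 18 h there was no kinase at that level (6214 of all genes).

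**Figure D3:**
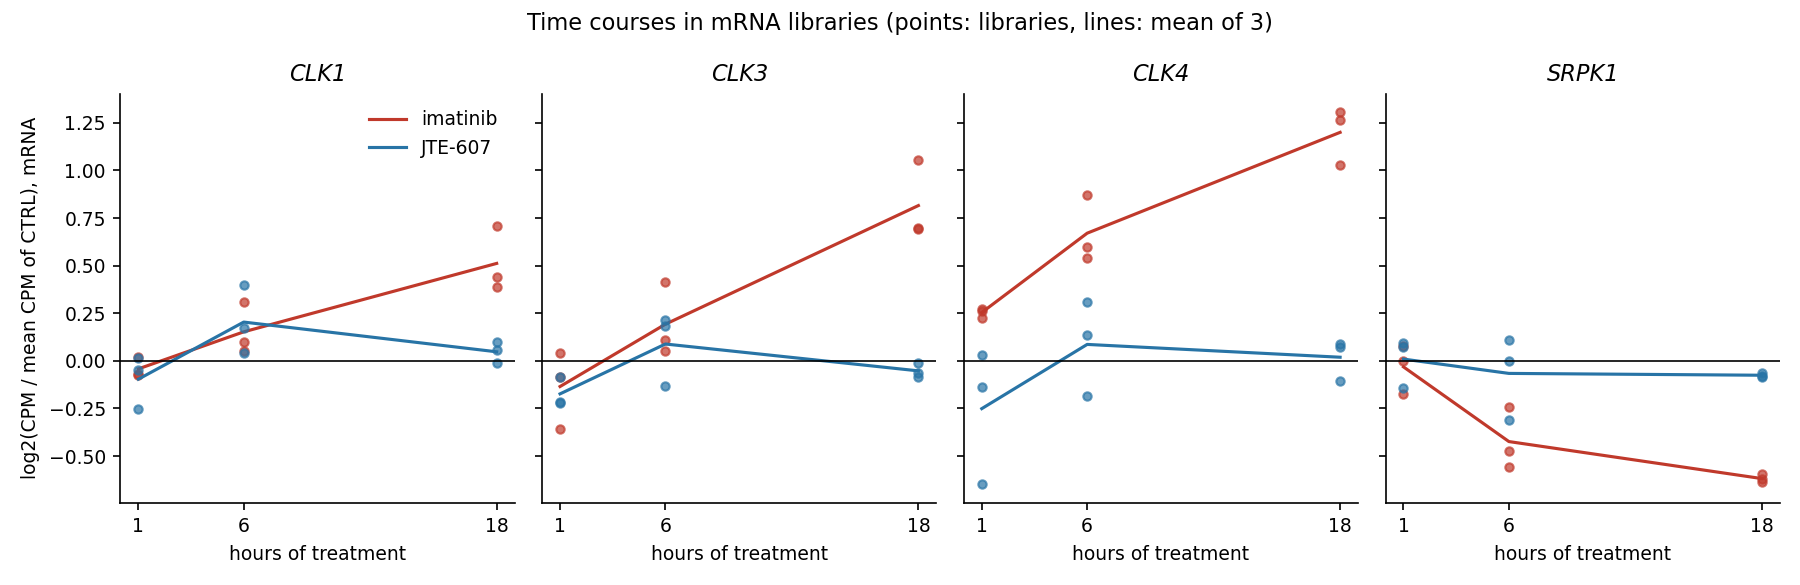
Level of 4 kinases relative to the CTRL mean (y axis, log2 of the CPM ratio) after 1, 6 and 18 h (x axis) of imatinib or JTE-607 in mRNA, with points for libraries and lines for the mean of 3. With imatinib CLK4 and CLK3 are highest and SRPK1 lowest at 18 h, while no JTE-607 time was called for any of them.

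Imatinib and JTE-607 were compared at matched times in mRNA. At 6 h none of the 6 kinases was called (23.8% of all genes), and DESeq2 also called 0. For 4 of the 6, and for 7995 of all 18095 genes tested, the unadjusted p was under 0.05. CLK4 was higher with imatinib by 0.58 (SE 0.15, adjusted p = 0.0038), SRPK2 by 0.30 (SE 0.10, adjusted p = 0.0302) and CLK2 by 0.52 (SE 0.24, adjusted p = 0.0882). SRPK1 was lower (log2FC -0.36, SE 0.12, adjusted p = 0.0263). CLK4 crossed the fold threshold there without IM 6h replicate 1 (0.62) or 2 (0.63) or JTE 6h replicate 1 (0.69), and CLK2 passed both criteria without IM 6h replicate 3 (0.70) or JTE 6h replicate 2 (0.73). At 18 h CLK4 and CLK3 were called, 2 of 6 against 30.3% of all genes. CLK4 was at 11.4, 13.0 and 12.9 CPM with JTE-607, all under the imatinib libraries, a difference of 1.18 (SE 0.15, adjusted p = 1.29e-06). CLK3 was at 41.7, 40.2 and 39.7 CPM with JTE-607, also under every imatinib library, a difference of 0.88 (SE 0.15, adjusted p = 7.34e-05). SRPK1 at -0.54 (adjusted p = 0.00116) and CLK1 at 0.47 (adjusted p = 0.00134) fell short of the fold threshold, which SRPK1 passed with no filter on low counts (-0.61).

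CLK4 responded to KCl for 1 h differently in the fractions. In mRNA CLK4 was at 14.4, 15.8 and 16.2 CPM, above all CTRL libraries, with a log2FC of 0.34 (SE 0.15, adjusted p = 0.236) that was not called. In nuclear RNA it was at 9.55, 8.56 and 6.84 CPM, below all CTRL libraries, and fell by 1.00 on the log2 scale (SE 0.14, adjusted p = 1.6e-05), a call that held in all 11 alternatives between -1.11 and -0.88. RN7SKP70, inside CLK4 on the same strand, was called lower there as well, with 9, 10 and 7 reads in CTRL and 0 in each KCl library, and its part in the fall of CLK4 was not tested. The nuclear response minus the mRNA response was -1.44 (SE 0.22, adjusted p = 0.00455) in a joint fit of the 12 libraries, called in all 17 alternatives between -1.59 and -1.31.

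CLK1 had the same arrangement at a smaller size. Its mRNA libraries after 1 h of KCl, at 50.1, 46.7 and 45.1 CPM, were all above CTRL (log2FC 0.36, SE 0.11, adjusted p = 0.0463, short of the fold threshold). Its nuclear libraries, at 27.4, 20.8 and 22.4 CPM, were all below CTRL (log2FC -0.35, SE 0.14, adjusted p = 0.0741). The difference of responses was -0.82 (SE 0.18, adjusted p = 0.0555), which missed the threshold. It was called with the replicate number as a block (-0.83, adjusted p = 0.00722), with that block and the mRNA CTRL numbers 1 and 2 exchanged (-0.83, 2.84e-07), by DESeq2 (-0.75, 0.0137), with no filter on low counts (-0.78, 0.0384), without mRNA KCl 1h replicate 3 (-0.89, 0.0354) and without nuclear KCl 1h replicate 1 (-0.98, 0.0119).

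**Figure D4:**
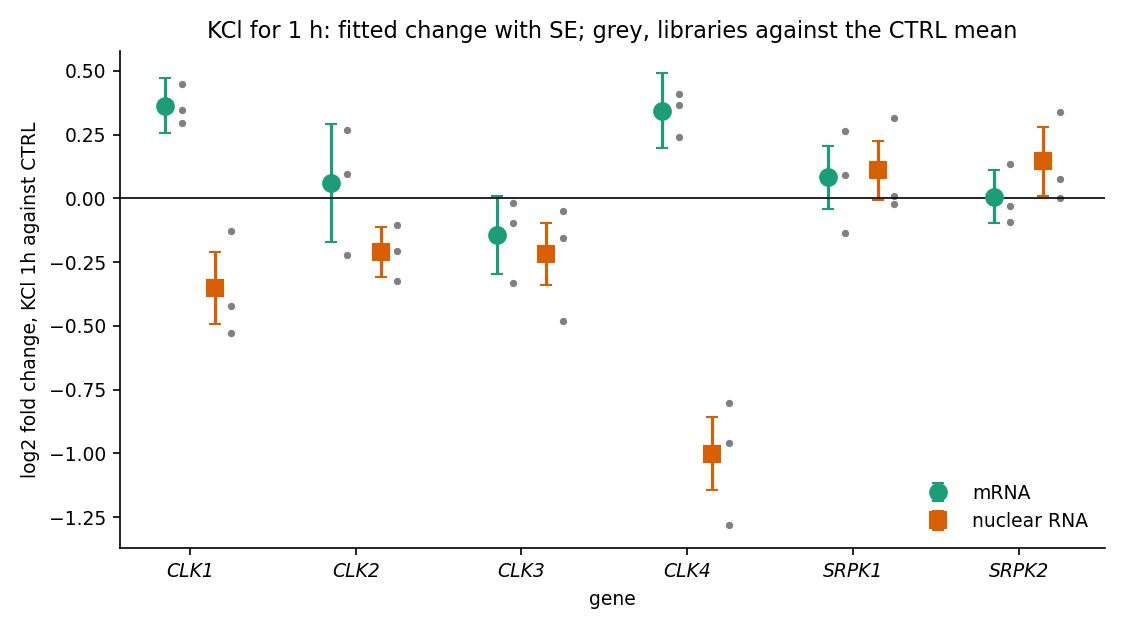
Log2FC of KCl 1h against CTRL (y axis) with its SE for the 6 kinases (x axis) in mRNA (circles) and nuclear RNA (squares), with grey points for single libraries against the CTRL mean. CLK1 and CLK4 lie above 0 in mRNA and below 0 in nuclear RNA, and for the other kinases the error bars of the fractions lie within 0.5 of 0.

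For KCl the counts called were 0 of 6 in mRNA at 1 h (5.45% of all genes), 0 of 6 in mRNA at 3 h (11.9%) and 1 of 6 in nuclear RNA at 1 h (23.8%), with 0 of 6 by DESeq2 in mRNA at either time. In mRNA 2 of 6 had an unadjusted p under 0.05 at 1 h and 0 at 3 h, beside 2711 and 4816 of all 18095 genes tested. In nuclear RNA 3 of 6 had such a p, beside 7628 of all 21929 genes tested. These were CLK4, CLK1 and CLK2 (log2FC -0.21, adjusted p = 0.13), with all CLK2 libraries below CTRL. By 3 h in mRNA CLK1 was at 34.5, 33.5 and 29.5 CPM and CLK4 at 9.89, 11.3 and 9.80 CPM, below all mRNA libraries at 1 h. From 1 h to 3 h CLK1 differed by -0.54 (SE 0.11, adjusted p = 0.00331) and CLK4 by -0.58 (SE 0.15, adjusted p = 0.0184), both short of the fold threshold, and none of the 6 was called (3.29% of all genes; 0 by DESeq2). There 3 of 6 had an unadjusted p under 0.05, beside 2696 of all 18095 genes tested. CLK4 crossed the threshold in this step without KCl 1h replicate 1 (-0.63), without KCl 3h replicate 2 (-0.65) and with no filter on low counts (-0.62).

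KCl and JTE-607 were compared with each other at 1 h. In mRNA CLK1 was higher with KCl by 0.46 (SE 0.11, adjusted p = 0.0111) and CLK4 by 0.57 (SE 0.15, adjusted p = 0.0208), and none of the 6 was called (4.29% of all genes). DESeq2 called 0, and 2 of the 6 had an unadjusted p under 0.05, beside 2677 of all 18095 genes tested. CLK4 passed the fold threshold without JTE 1h replicate 1 (0.61) or 2 (0.71). In nuclear RNA CLK4 was lower with KCl by a log2FC of -0.71 (SE 0.14, adjusted p = 0.00103), the only call of the 6 (15.9% of all genes), and it was lost without nuclear KCl 1h replicate 3 (-0.59, adjusted p = 0.0102). JTE-607 libraries were at 13.9, 13.3 and 13.7 CPM there, all above the KCl libraries.

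**Figure D5:**
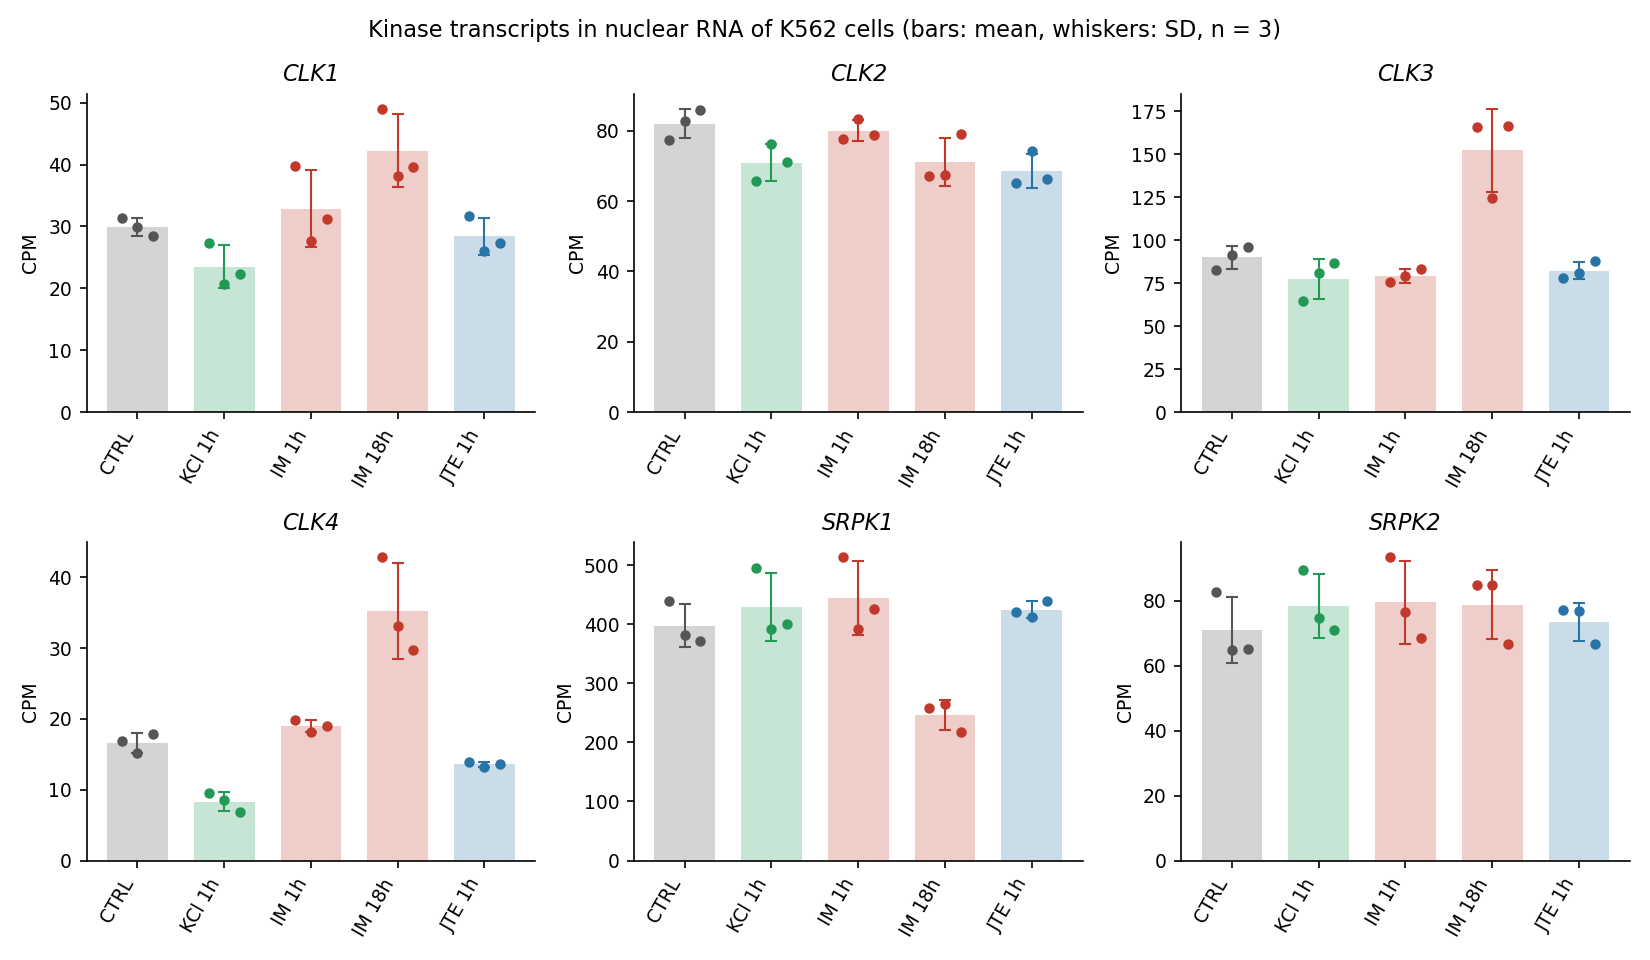
CPM of the 6 kinases (y axes, each from 0) in the 5 nuclear RNA groups (x axes), with points for the 3 libraries, bars for the mean and whiskers for the SD. The libraries of CLK4 do not overlap between any of the 5 groups, from 8.32 CPM with KCl to 35.3 CPM after 18 h of imatinib. CLK3 and SRPK1 separate IM 18h from the rest. For CLK4 neither IM 1h nor JTE 1h passed the test against CTRL, and the share of all genes so separated is not given.

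The other treatments gave no difference of response between fractions that was called. The counts were 0 of 6 for imatinib at 1 h (0% of all genes) and 0 of 6 at 18 h (0.0901%). They were 0 of 6 for JTE-607 at 1 h (0.0605%), beside 1 of 6 for KCl at 1 h (0.668%). For imatinib and JTE-607 DESeq2 called 0, and 0 of 6 had an unadjusted p under 0.05. Of all genes tested, 395 of 19420, 974 of 19967 and 1175 of 19831 had such a p, in the same order. At 18 h of imatinib the differences lay between -0.06 and 0.25 with SEs of 0.16 to 0.21. None of these differences passed the test with 3 libraries a group, and the smallest difference that could pass was not computed.

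Nuclear and whole-cell RNA of untreated cells were compared in a fit of the 6 CTRL libraries scaled together, so the CPM of the separate fractions do not enter. CLK3 was relatively higher in nuclear RNA by 0.71 (SE 0.12, adjusted p = 0.000273) and CLK1 relatively lower (log2FC -0.68, SE 0.12, adjusted p = 0.000279), 2 of 6 called against 44.9% of all genes. SRPK2 at -0.58 (adjusted p = 0.00243) and SRPK1 at -0.48 (adjusted p = 0.00458) fell short of the fold threshold. The call of CLK1 was lost without nuclear CTRL replicate 3 (-0.60), SRPK1 was called without mRNA CTRL replicate 3 (-0.62), and SRPK2 was called by DESeq2 (-0.61) and without mRNA CTRL replicate 1 (-0.70) or 3 (-0.63) or nuclear CTRL replicate 1 (-0.68). Fraction and library preparation, rRNA depletion against poly(A) selection, cannot be told apart.

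In the order of group means, read only from whether the 3 libraries of neighbouring groups overlapped, CLK4 had the most steps of the 6. The 5 nuclear groups of CLK4 did not overlap, IM 18h over IM 1h over CTRL over JTE 1h over KCl 1h. Neither IM 1h nor JTE 1h passed the test against CTRL. In mRNA IM 18h and IM 6h of CLK4 were each apart from the group below. The share of all genes with as many steps is not given, so the steps are not read as particular to CLK4. For CLK3 only IM 18h was apart from its neighbour, in both fractions. For SRPK1, IM 18h was lowest and apart in both fractions, with IM 6h next above it in mRNA and apart from JTE 18h, and the step from IM 6h to IM 18h did not pass the test (log2FC -0.20, SE 0.12, adjusted p = 0.338). For CLK1, CLK2 and SRPK2 every neighbouring pair of groups overlapped, so no order among adjacent groups can be read.

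Replicate 3 was the lowest of its group in 7 of 9 mRNA groups for CLK2 and likewise for SRPK1, at a median of 0.701 and 0.855 times the mean of the other replicates. For SRPK2 this held in 0 of 9 groups. In nuclear RNA replicate 3 was lowest in 0 of 5 groups for CLK2 and 2 of 5 for SRPK1. The wide SD of CLK2 in mRNA, 9.84 CPM around 51.1 in CTRL, follows that split, and its part in the missing calls of CLK2 was not tested.

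Across libraries, CLK1, CLK3 and CLK4 varied together. Over the 27 mRNA libraries Pearson's r of log2 CPM was 0.80 for CLK3 with CLK4, 0.73 for CLK1 with CLK4 and 0.65 for CLK1 with CLK3, and over the 15 nuclear libraries it was 0.76, 0.91 and 0.66. SRPK1 ran against CLK3, with r of -0.57 in mRNA and -0.95 in nuclear RNA, and against CLK4, with -0.65 and -0.68. CLK2 had r between 0.07 and 0.33 with the other kinases in mRNA and between -0.42 and 0.05 in nuclear RNA. These values describe libraries that share treatments, and the groups set much of them.

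Among 8418 genes above 10 CPM in both fractions, the genes whose log2 CPM over 42 libraries was most like 5 of the kinases were listed, with no reading of shared function. CLK4 was the closest to CLK1 (r = 0.829), followed by HEATR5B (0.817) and RNF19A (0.768). CLK3 was closest to SLC22A4 (0.932), ALAS2 (0.928), the red cell enzyme that starts haem synthesis, and HBZ (0.921), an embryonic globin. CLK4 was closest to SLC22A4 (0.867), LINC00680 (0.846) and TXNDC16 (0.843). SRPK1 was closest to LIN28B (0.973), which blocks maturation of let-7 microRNAs, NUDCD1 (0.971) and DDX52 (0.964), an RNA helicase. SRPK2 was closest to LRIF1 (0.844), STRN (0.822) and RAB3GAP1 (0.813). The points share library, depth and treatment group.

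The substrates and partners of the kinases were followed in 5 lists with 49 genes. After 18 h of imatinib 2 of 49 were called higher and 12 lower in mRNA, where 30.5% of all genes were called, and 2 higher and 13 lower of 48 tested in nuclear RNA (32.6%). Of the 14 SR proteins, the main substrates, 6 fell in mRNA and 0 rose, and the median log2FC of the list was -0.34 against 0.04 over all genes. SRSF2 (log2FC -1.07, adjusted p = 0.00114) and SRSF7 (-0.96, 0.00013) fell most in mRNA, and SRSF7 (-0.92, 7.99e-06) and SRSF1 (-0.86, 5.49e-06) in nuclear RNA. Of 7 import factors and chaperones, 4 fell in mRNA, with a median of -0.87, among them TNPO1 (-0.97, 2.17e-07), a nuclear import receptor, and AHSA1 (-1.07, 0.0015), an activator of HSP90. Of 10 related kinases, DYRK1B (1.47, 0.000762) and DYRK3 (0.60, 0.0134) rose and DYRK2 (-0.99, 0.000137) fell, and of 5 phosphatases PPP2CA (-0.68, 1.63e-06), the catalytic subunit of PP2A, fell. Of 13 other proteins with arginine-serine domains 0 were called in mRNA and 2 fell in nuclear RNA, U2AF2 (-0.76, 7.07e-06) and DDX23 (-0.74, 5.95e-06).

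Under JTE-607 the lists had 0, 1 and 0 of 49 genes called in mRNA at 1, 6 and 18 h, where 0.851%, 13.2% and 5.39% of all genes were, and 1 of 48 in nuclear RNA at 1 h (8.52%), both rises of DYRK kinases, DYRK4 by 0.91 (adjusted p = 0.000488) in mRNA and DYRK1B by 0.93 (adjusted p = 0.000638) in nuclear RNA. KCl gave 1 rise and 1 fall in mRNA at 1 h (5.45% of all genes called), 1 and 5 at 3 h (11.9%), and 2 and 2 in nuclear RNA at 1 h (23.8%). U2AF1, which reads the 3′ splice site, fell in each, by 1.86 on the log2 scale (adjusted p = 8.96e-06) in mRNA at 1 h, by 1.58 (adjusted p = 3.02e-05) at 3 h and by 1.84 (adjusted p = 6.79e-08) in nuclear RNA. Its reads are uncertain, since the near-identical copy U2AF1L5 can take or remove them. The 1 rise in mRNA at 3 h was the SR protein SRSF12 (log2FC 4.88, SE 0.98, adjusted p = 0.00216). SRPK3, the muscle-rich relative of SRPK1 and SRPK2, fell by 1.83 (adjusted p = 8.25e-07) in nuclear RNA with KCl, and DYRK1A, a kinase that also phosphorylates splicing factors, by 0.88 (adjusted p = 2.15e-07) in mRNA at 3 h.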

How the data were processed

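Per the labels and the study's methods, the authors trimmed and deduplicated read pairs with fastp, aligned them with STAR to hg38, kept unique alignments with introns up to 10000 bases, and counted pairs over exons per gene with featureCounts. The deposited values are raw counts per Ensembl gene, 1 table for mRNA and 1 for nuclear RNA; no strand option is given, so reads of genes that overlap on opposite strands cannot be told apart, and the annotation release is not given in the sources used here. Gene symbols matched 57532 of 58243 identifiers.

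The counts were analysed with edgeR 4.0.16 in R 4.3.3 (TMM, filterByExpr, robust quasi-likelihood test, Benjamini-Hochberg adjustment over all genes tested), with all 27 mRNA or all 15 nuclear libraries in 1 fit, the 12 libraries of 4 groups for differences of response, and the 6 CTRL libraries for nuclear RNA against mRNA. SEs are the log2 fold change over the root of F. Likeness used log2(CPM + 0.5), centred on CTRL. DESeq2 1.42.0, RLE scaling, no filter, no fold threshold, fits of 2 groups, a replicate block and leaving out each library were the alternatives. The edgeR script was tested on simulated data. The genes named are the 6 kinases throughout, up to 2 rises and 2 falls per list and comparison, and 3 genes most like each kinase, and not all list genes so chosen are printed. The genes most like CLK2 are not reported here. The kinases, lists and tests were chosen with earlier results of these data known.

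Same-numbered nuclear libraries deviated together (correlation of deviations 0.233 to 0.890 with CTRL), as did those of JTE 1h, 6h and 18h, KCl 1h and 3h, KCl and JTE 1h, and IM and JTE 6h in mRNA. With mRNA CTRL the correlations by the titles' numbers were 0.0546 to 0.876 for number 3 but -0.363 to 0.0761 for numbers 1 and 2. With numbers 1 and 2 of mRNA CTRL exchanged, all pairs were above 0.1 in 7 of 8 comparisons with CTRL, the exception being JTE 18h. A depth table of the study also numbers these CTRL libraries the other way round from the titles. The titles' numbers are kept here, and the block with the exchanged numbers was added after seeing the data. The groups are the same either way. The pairing comes from the data, since the labels give only the number of the repeat. The numbers stand for repeated experiments, and p-values measure the spread between these samples. All pairs of replicates differed by more than sampling noise. Protein sequences and splicing were not analysed here.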

Additional observations from a re-analysis of the deposited data

Results flagged for a closer look

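CLK3 in mRNA differed between 18 h and 6 h of imatinib, a log2 fold change of 0.63 in a direct test of the later time against the earlier, while from CTRL it was not called at 6 h and called at 18 h. CLK4 responded differently to KCl for 1 h in the fractions, with a nuclear minus mRNA difference of -1.44 in a direct test of the difference. No group had the 4 or more libraries needed to look for a library far from the others of its group, and no file, column or sample was left unused.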

How the results depend on the processing

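Of 150 log2 fold changes, 6 kinases in 25 comparisons, 44 had an unadjusted p under 0.05 and 0 of these changed sign under any alternative. Of the other 106, 51 changed sign under at least 1 alternative and 0 became called. For these, values and the overlap of libraries are given, in places with the SE and adjusted p, and none counts as a change. RLE scaling and fits of only the groups compared moved no count of kinases called by over 1.5 times. With no fold threshold the counts, each with the share of all genes passing, became 2 in mRNA after 6 h of imatinib (16%), 1 in mRNA after 1 h of KCl (6.24%), 3 for imatinib at 18 h against 6 h (8.34%), 2 for KCl at 3 h against 1 h (4.89%), 2 for KCl against JTE-607 at 1 h in mRNA (5.47%), 3 and 4 for imatinib against JTE-607 at 6 h (34.8%) and 18 h (44.2%), and 4 for nuclear RNA against mRNA in CTRL (58.5%). With no filter on low counts they became 0 for imatinib at 18 h against 6 h (2.96% of all genes called). For KCl at 3 h against 1 h the count became 1 (2.42%). The KCl difference between fractions had 2 kinases with no filter (0.968%) and 2 with DESeq2 (0.594% of all 58243 genes). The replicate block gave 2 kinases for that difference (1.47% of all genes called), and with the mRNA CTRL numbers 1 and 2 exchanged, an alternative chosen after seeing the data, it gave 2 as well (4.66%). Neither pairing changed another call of a kinase; the cause was not tested in any of these. Leaving out single libraries gave 0 to 1 kinases for imatinib at 6 h, 0 to 2 for imatinib at 18 h against 6 h, 0 to 1 for KCl at 3 h against 1 h, for KCl against JTE-607 at 1 h in mRNA and in nuclear RNA, and for imatinib against JTE-607 at 6 h, 1 to 2 for the KCl difference between fractions and 1 to 4 for nuclear RNA against mRNA. The shares of all genes called in these fits are not given, and those of the main fits stand with each comparison above. Among the genes most like a kinase, 0 of 3 were shared with the list from mRNA libraries alone for CLK1, CLK4 and SRPK2, and 0 of 3 with the Spearman list for SRPK1. With 3 libraries a group, SEs of 0.10 to 0.24 on the log2 scale in mRNA limit what could be called, and CLK4, the least abundant kinase, rests on the fewest reads.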
